A study of Mus musculus with 4 samples.

Results

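The SR proteins and the heterogeneous nuclear ribonucleoproteins (hnRNPs) were taken as the protein-coding genes whose symbols are Srsf followed by a number or start with Hnrnp. This rule found 32 genes among 40092 rows, of which 20451 were protein-coding. They comprised 11 SR protein genes and 21 hnRNP genes. AT2 cells, the surfactant-producing progenitors of the lung alveolus, were sorted by their GFP 14 days after bleomycin, a drug that injures the alveolar epithelium. The 2 Ctrl libraries carried Alkbh5 flox/+ and the 2 A5-CKO libraries carried Alkbh5 flox/flox, so one floxed allele was present in the controls as well. Both genotypes carried Sftpc-CreERT2, a tamoxifen-inducible recombinase driven from the AT2 gene Sftpc, and the Rosa26-mTmG reporter, which makes recombined cells green, and both received tamoxifen and bleomycin. Alkbh5 encodes a demethylase that removes N6-methyladenosine from RNA, and the comparison asked how AT2 cells differ when it is deleted during repair.

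SR proteins carry an RNA recognition motif and a tail rich in serine and arginine. They bind exons and help the spliceosome recognise splice sites, and kinases control their location and activity by phosphorylating the tail. hnRNPs coat nascent transcripts, often oppose exon inclusion, and also act in RNA export, stability and translation. Many genes of both families limit their own level by splicing in an exon that sends the transcript to nonsense-mediated decay.

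Read counts per gene summed to between 18144865 and 20811757 per library, and 3 counts, taken as the floor for detection, correspond to 0.128 to 0.177 CPM (the usual library-scaled count, here on library sizes adjusted with TMM factors). This floor covers counting error only. Libraries of the same genotype differed far beyond sampling noise, with a chi-square per degree of freedom of 110 between the Ctrl libraries and 96.3 between the A5-CKO libraries. Nothing in the labels ties a library to a single animal, so p-values measure the spread between these libraries. Alkbh5 was at 81.7 and 152 CPM in Ctrl 1 and Ctrl 2 and at 19.3 CPM in A5-CKO 1 and 36.6 CPM in A5-CKO 2, which gave a log2 fold change of -2.06 (SE 0.46, adjusted p = 0.528 by the quasi-likelihood test of edgeR, Benjamini-Hochberg adjusted). DESeq2 with default filtering gave an adjusted p of 0.0254 for the same gene. All 10 AT2 markers were above the floor in every library, and their summed level was 66479 and 92291 CPM in the Ctrl libraries and 48903 and 40487 CPM in the A5-CKO libraries. Macrophage markers were lower in Ctrl 2 and A5-CKO 1 (335 and 478 CPM) than in Ctrl 1 and A5-CKO 2 (895 and 976 CPM), and so were B and plasma cell markers (145 and 200 CPM against 734 and 686 CPM). Fibroblast markers summed to 397, 148, 96.1 and 1022 CPM in the order Ctrl 1, Ctrl 2, A5-CKO 1 and A5-CKO 2, and their part in the results below was not tested.

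Of the 32 genes, 30 had enough counts to be tested, all 11 SR genes and 19 of the 21 hnRNP genes. By the quasi-likelihood test of edgeR, no member passed an adjusted p of 0.05, and 0% of the 16661 genes tested did (0 of 16661). At an unadjusted p under 0.05, 2 members were higher in A5-CKO, Srsf11 and Srsf12, and none was lower. Over all genes, 9.18% passed that threshold, 4.48% higher and 4.71% lower, so the members' count lay near this background. DESeq2 called 2 members at an unadjusted p under 0.05 (Srsf11 and Hnrnpdl) and limma voom called 1, and neither called a member after adjustment, where DESeq2 with default filtering called 0.328% of all genes. The median log2 fold change of the 30 members was 0.31, against -0.02 for all genes tested, with 22 members above 0 and 8 below, where 49.1% of all genes were above 0. Both families had like medians, 0.32 for the SR genes and 0.31 for the hnRNP genes. These medians rested on A5-CKO 1. Without that library they were -0.02 and -0.0076, and a correction for transcript GC content and length gave -0.03 and -0.07. The median of all genes was -0.08 in both of these fits, so the family medians stayed slightly above it. The log2 fold change turned sign for 9 of the 30 members without A5-CKO 1 and for 11 with the correction. With total counts as the scaling, the median of all genes moved to 0.30 and those of the families to 0.65 and 0.63.

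**Figure D1:**
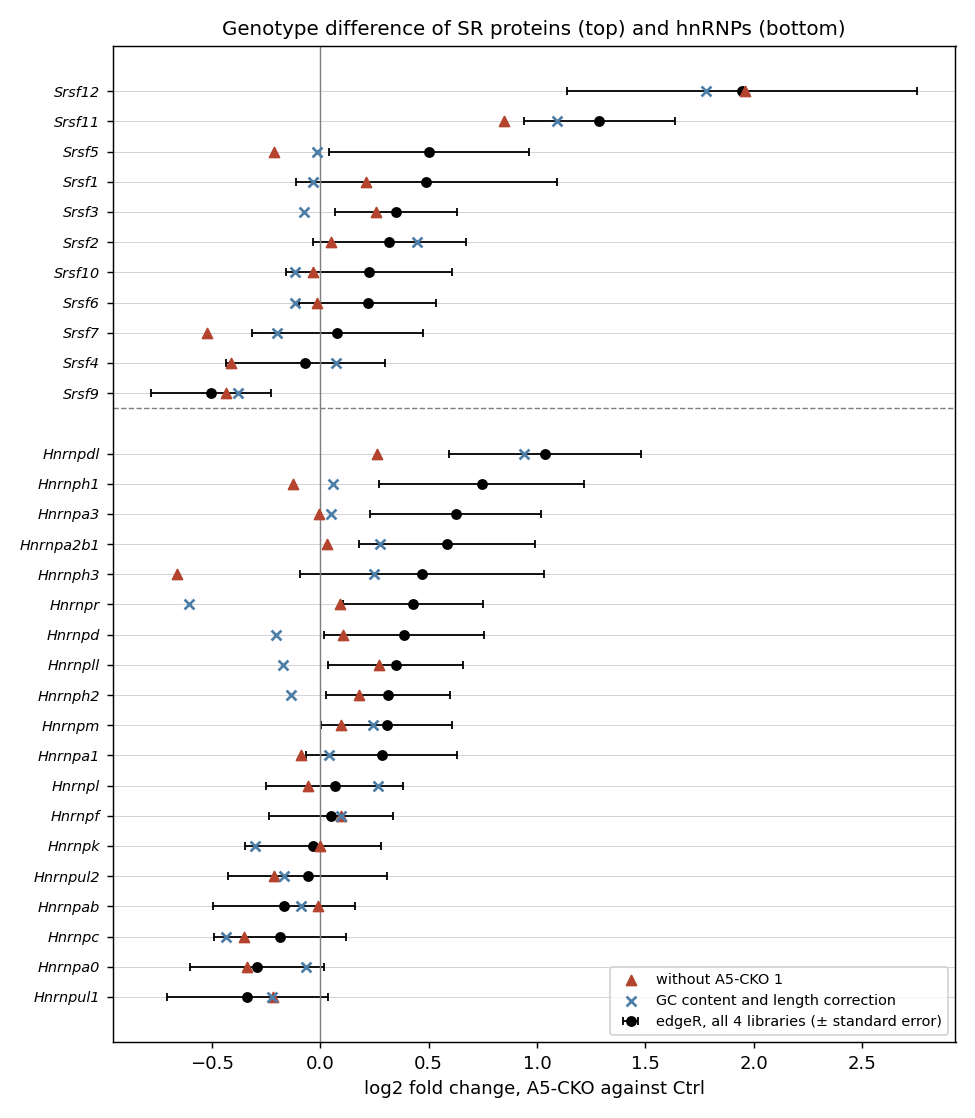
Log2 fold change of each SR and hnRNP gene, A5-CKO over Ctrl, with its standard error, from edgeR's quasi-likelihood fit with 2 libraries per genotype. Srsf12 (1.95) and Srsf11 (1.29) lie at the top, Srsf9 (-0.50) lies at the bottom, and no gene has an adjusted p under 0.05.

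A5-CKO 1 stood apart from the other libraries in these genes. It held the highest CPM of the 4 libraries for 20 of the 30 members, 8 of 11 SR genes and 12 of 19 hnRNP genes, where 27.8% of all genes tested were highest in A5-CKO 1. It exceeded A5-CKO 2 in 24 members, against 53.4% of all genes. The median member was 0.46 above the Ctrl mean in A5-CKO 1 on the log2 scale and 0.0017 above it in A5-CKO 2. For 25 of the 30 members, the larger of the differences between libraries of one genotype exceeded the difference between genotypes. That count was not taken over all genes, so it cannot be read as a trait of the members. Both A5-CKO libraries lay above both Ctrl libraries for 7 members (Srsf1, Srsf3, Srsf11, Srsf12, Hnrnpdl, Hnrnph2 and Hnrnpll) and below them for 2 (Srsf9 and Hnrnpa0), and the genotypes overlapped for the other 21. Over all genes tested, 20.3% did not overlap and were higher in A5-CKO, and 23.5% did not overlap and were lower. In bulk RNA, fewer cells of a type and less RNA per cell cannot be told apart.

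**Figure D2:**
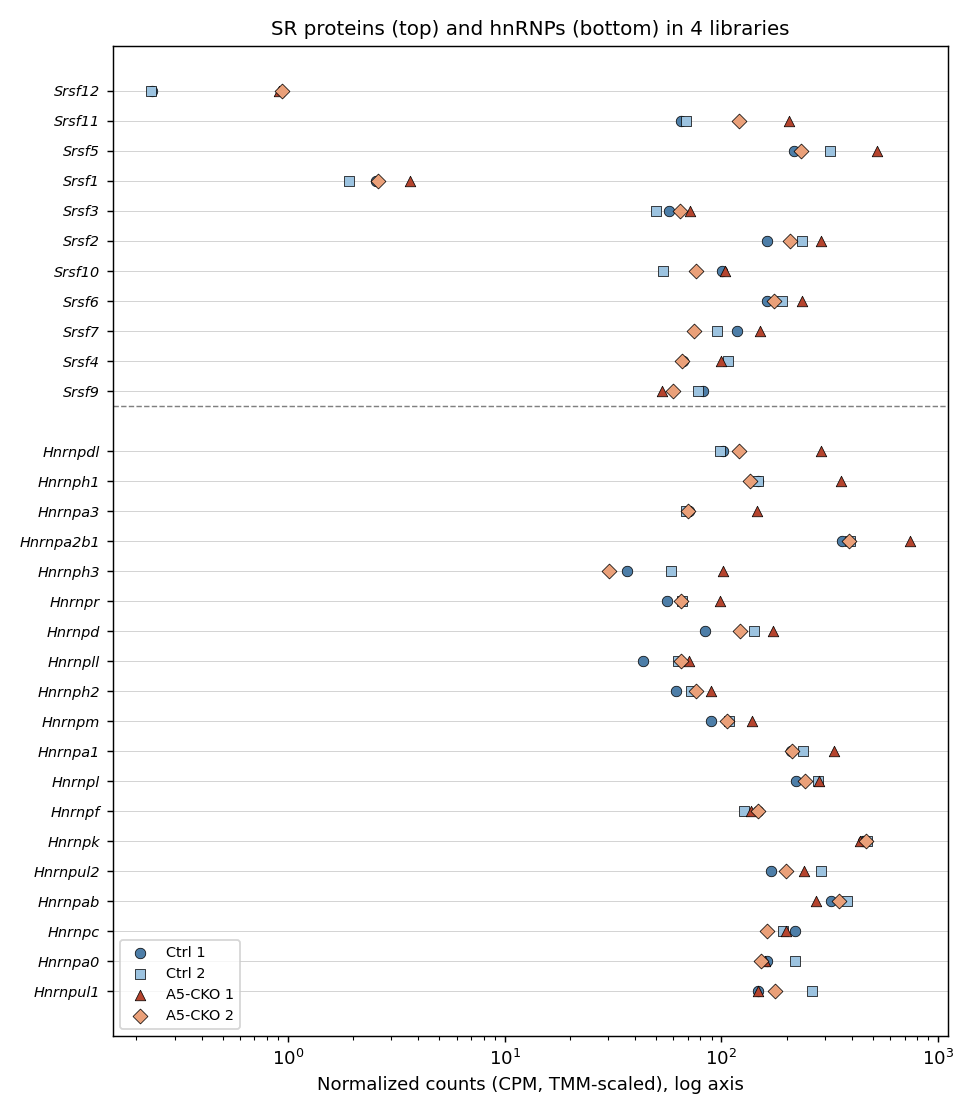
Level of each SR and hnRNP gene in the 4 libraries, in CPM on a log axis, with 1 point per library. Points of A5-CKO 1 lie highest for 20 of the 30 tested genes, and Hnrnpk is among the most abundant at 436 to 470 CPM in every library.

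The share of all counts that fell on each family was taken with no scaling factors, which is the total-count scaling that moved the median of all genes to 0.30. The SR genes took 0.0961% of all counts in Ctrl 1 (95% Wilson interval 0.0947 to 0.0975%), 0.103% in Ctrl 2 (0.102 to 0.105%), 0.192% in A5-CKO 1 (0.190 to 0.194%) and 0.122% in A5-CKO 2 (0.120 to 0.123%). Both A5-CKO libraries lay above both Ctrl libraries, with means of 0.157% ± 0.0498 in A5-CKO and 0.0997% ± 0.00505 in Ctrl (SD, n = 2 each, two-sided exact permutation p = 0.3333, the smallest that 2 against 2 libraries can give). The hnRNP genes took 0.289% (0.286 to 0.291%) and 0.315% (0.313 to 0.318%) in the Ctrl libraries and 0.488% (0.485 to 0.491%) and 0.369% (0.367 to 0.372%) in A5-CKO 1 and A5-CKO 2. Their means were 0.302% ± 0.0191 in Ctrl and 0.428% ± 0.0836 in A5-CKO, again without overlap (SD, n = 2 each, two-sided exact permutation p = 0.3333). These intervals cover counting error only. With the TMM factors used for CPM, an alternative chosen after seeing the data, both families overlapped between genotypes. The SR genes then summed to 1031 and 1201 CPM in the Ctrl libraries and to 1737 CPM in A5-CKO 1 and 1081 CPM in A5-CKO 2 (two-sided exact permutation p = 0.667). The hnRNP genes summed to 3095 and 3672 CPM in the Ctrl libraries and to 4412 CPM in A5-CKO 1 and 3285 CPM in A5-CKO 2 (two-sided exact permutation p = 0.667). In each family A5-CKO 1 was the highest and A5-CKO 2 lay between the Ctrl libraries. The ratio of the families is the same under every scaling. There were 3.003 and 3.06 hnRNP reads per SR read in the Ctrl libraries and 2.54 in A5-CKO 1 and 3.04 in A5-CKO 2, so A5-CKO 1 had the fewest and the genotypes overlapped (two-sided exact permutation p = 0.667).

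Among the SR proteins, Srsf11 had the smallest p. It encodes an SR-related splicing factor and lies on chromosome 3 from 158010915 to 158036667 (GRCm38.p6), with 13 exons. Its level was 64.7 and 68.3 CPM in Ctrl 1 and Ctrl 2 and 204 CPM in A5-CKO 1 and 121 CPM in A5-CKO 2. Both A5-CKO libraries were higher, A5-CKO 1 the most, and the genotypes did not overlap. The log2 fold change was 1.29 (SE 0.35, adjusted p = 0.528 by the quasi-likelihood test of edgeR, Benjamini-Hochberg adjusted), and the unadjusted p from edgeR, fitted across all genes, was 0.00807. The log2 fold change was above 0 in all 17 settings, main and alternatives, from 0.85 without A5-CKO 1 to 1.60, and the adjusted p in these settings ranged from 0.0546 to 0.878. The 60 bases just before the gene are shown because Srsf11 led the families. In RefSeq, they lie at chr3:158036668-158036727 on the minus strand (GRCm38.p6), and the capitals mark the letters CCGGAAG, known from ETS factor sites, and TGACG, the core of a cAMP response element. Each is a letter match and not a measured site.
Srsf11: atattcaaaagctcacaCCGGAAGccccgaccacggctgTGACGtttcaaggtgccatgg

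Srsf12, which encodes an SR protein related to SRSF10, was scarce in AT2 cells. It had 4 counts in each Ctrl library and 20 counts in A5-CKO 1 and 22 counts in A5-CKO 2, or 0.237, 0.233, 0.905 and 0.940 CPM. Both A5-CKO libraries were higher and close to each other, and the genotypes did not overlap. The log2 fold change was 1.95 (SE 0.81, adjusted p = 0.528 by the quasi-likelihood test of edgeR, Benjamini-Hochberg adjusted). The unadjusted p was 0.0472 in edgeR, fitted across all genes, 0.0734 in limma voom and 0.118 in DESeq2 with default filtering, and the log2 fold change lay between 1.78 and 2.26 in all 16 settings that kept the gene.

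Srsf9, which encodes a short SR protein close to SRSF1, was the member with the lowest log2 fold change. The gene spans chr5:115327163-115333843 (GRCm38.p6), and its level was 82.2 and 78.4 CPM in the Ctrl libraries against 53.4 and 59.8 CPM in the A5-CKO libraries. Both A5-CKO libraries were lower and the genotypes did not overlap. The log2 fold change was -0.50 (SE 0.28, adjusted p = 0.565 by the quasi-likelihood test of edgeR, Benjamini-Hochberg adjusted), and it was below 0 in all 17 settings, from -0.62 to -0.19. Srsf9 overlaps Gatc, so reads in the shared stretch are uncertain. The 60 bases before the gene, at chr5:115327103-115327162 on the plus strand (GRCm38.p6, RefSeq), are shown beside those of Srsf11 because Srsf9 had the lowest log2 fold change of the members. The capitals mark GGGCGG on the other strand, the GC box bound by SP1.
Srsf9: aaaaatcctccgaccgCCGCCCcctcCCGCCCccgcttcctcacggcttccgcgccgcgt

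The most abundant SR gene was Srsf5, which encodes a classical SR protein. It took the largest share of SR counts in each of the 4 libraries, 20.99% in Ctrl 1 (95% Wilson interval 20.4 to 21.6%), 26.5% in Ctrl 2 (25.9 to 27.1%), 30.2% in A5-CKO 1 (29.8 to 30.7%) and 21.5% in A5-CKO 2 (21.01 to 22.0%). Its level was 216 and 319 CPM in the Ctrl libraries and 525 and 233 CPM in the A5-CKO libraries. A5-CKO 1 was highest and A5-CKO 2 lay between the Ctrl libraries, and the log2 fold change was 0.50 (SE 0.46). Srsf2, known as SC35 and as a marker of nuclear speckles, was at 162, 236, 289 and 208 CPM in the order Ctrl 1, Ctrl 2, A5-CKO 1 and A5-CKO 2. Only A5-CKO 1 lay above both Ctrl libraries, and the log2 fold change was 0.32 (SE 0.35). Srsf2 overlaps Mfsd11, so part of its count is uncertain.

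Srsf3, a small SR protein that also acts in RNA export, was at 57.2 and 49.9 CPM in the Ctrl libraries and at 71.9 and 64.6 CPM in the A5-CKO libraries, a log2 fold change of 0.35 (SE 0.28). The genotypes did not overlap, but the gap between them, from 57.2 to 64.6 CPM, was of the size of the spread within each genotype. Srsf4 and Srsf6 encode long SR proteins with a pair of RNA recognition motifs, and Srsf7 a relative of Srsf3 with a zinc knuckle. The log2 fold changes of Srsf4, Srsf6, Srsf7 and Srsf10 ranged from -0.07 to 0.22, and the genotypes overlapped in each. Srsf10, which represses splicing when dephosphorylated, was at 101 and 53.7 CPM in the Ctrl libraries and at 104 and 76.0 CPM in the A5-CKO libraries. The Ctrl libraries lay further apart than the A5-CKO libraries.

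Srsf1, the founding SR protein, gave few counts, and its values are uncertain. It had 43, 33, 81 and 61 counts in the order Ctrl 1, Ctrl 2, A5-CKO 1 and A5-CKO 2, or 2.54, 1.92, 3.67 and 2.61 CPM, a log2 fold change of 0.49 (SE 0.60). The libraries did not overlap by genotype, at 2.54 against 2.61 CPM for the nearest. A second copy of Srsf1 lies on a fix patch of the assembly and had 0 counts in all 4 libraries. Reads that match both copies equally are not unique. The other 8 genes that the table lists on both the chromosome and this patch had at most 1 count on the chromosome and at most 20 on the patch. The low count of Srsf1 can therefore not be read as a low level.

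Among the hnRNPs of the A/B group, which bind AU-rich and UAG-containing RNA and often silence exons, Hnrnpa2b1 led. It was at 360 and 394 CPM in the Ctrl libraries and at 744 CPM in A5-CKO 1 and 389 CPM in A5-CKO 2. Only A5-CKO 1 was above the Ctrl libraries, and the log2 fold change was 0.59 (SE 0.41). Hnrnpa3 was at 71.0 and 68.9 CPM in the Ctrl libraries and at 146 CPM in A5-CKO 1 and 70.1 CPM in A5-CKO 2, so A5-CKO 2 lay between the Ctrl libraries, and its log2 fold change was 0.62 (SE 0.39). Hnrnpa1, known for blocking exon inclusion, was at 208 and 238 CPM in the Ctrl libraries and at 332 CPM in A5-CKO 1 and 212 CPM in A5-CKO 2, which again set A5-CKO 1 apart. The single-exon gene Hnrnpa0, whose protein binds AU-rich elements, was at 162 and 218 CPM in the Ctrl libraries and at 159 and 152 CPM in the A5-CKO libraries. The genotypes did not overlap, by 159 against 162 CPM, and the log2 fold change was -0.29 (SE 0.31). Hnrnpab, an RNA-binding protein of the same motif class, was at 321, 380, 273 and 350 CPM in the order Ctrl 1, Ctrl 2, A5-CKO 1 and A5-CKO 2, and the genotypes overlapped. Its gene overlaps Phykpl, so reads in the shared stretch are uncertain.

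Of the hnRNP D group, which binds AU-rich elements of short-lived messenger RNA, Hnrnpdl had the largest log2 fold change among the hnRNPs. Its level was 102 and 98.1 CPM in Ctrl 1 and Ctrl 2 and 289 CPM in A5-CKO 1 and 121 CPM in A5-CKO 2. Both A5-CKO libraries were higher and the genotypes did not overlap, A5-CKO 1 by far the most. The log2 fold change was 1.04 (SE 0.44, adjusted p = 0.528 by the quasi-likelihood test of edgeR, Benjamini-Hochberg adjusted), and the unadjusted p of edgeR, fitted across all genes, was 0.0526. DESeq2 with default filtering gave an unadjusted p of 0.0283. Without A5-CKO 1 the log2 fold change was 0.26. Hnrnpdl overlaps Enoph1 at its start, and Hnrnpd itself had a log2 fold change of 0.39.

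The H and F group binds G-rich RNA. Hnrnph1 was at 147 CPM in both Ctrl libraries and at 358 CPM in A5-CKO 1 and 136 CPM in A5-CKO 2. Only A5-CKO 1 was higher, A5-CKO 2 lay below both Ctrl libraries, and the log2 fold change was 0.74 (SE 0.47). Hnrnph3 was at 36.8, 58.5, 102 and 30.3 CPM in the order Ctrl 1, Ctrl 2, A5-CKO 1 and A5-CKO 2, with the same A5-CKO libraries at both ends, and it overlaps Rufy2. Hnrnph2 did not overlap between genotypes, at 61.4 and 72.3 CPM in the Ctrl libraries and 89.9 and 76.3 CPM in the A5-CKO libraries. Hnrnpf differed little, at 127 to 148 CPM in the 4 libraries. The values of these genes, of Srsf3 and of Hnrnpr are given although the rule for named members did not choose them.

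Hnrnpk, a poly(C)-binding protein, was the steadiest of the abundant members. It was at 449 and 470 CPM in the Ctrl libraries and at 436 and 463 CPM in the A5-CKO libraries, a log2 fold change of -0.03 (SE 0.32), whose sign turned under other scalings. It took the largest share of hnRNP counts in Ctrl 1 (14.5%, 95% Wilson interval 14.2 to 14.8%), Ctrl 2 (12.8%, 12.5 to 13.1%) and A5-CKO 2 (14.1%, 13.8 to 14.3%). In A5-CKO 1, Hnrnpa2b1 came first at 16.9% (16.6 to 17.1%) and Hnrnpk second at 9.88% (9.70 to 10.1%). Hnrnpl, which binds CA-rich RNA, was at 221, 279, 281 and 242 CPM in the order Ctrl 1, Ctrl 2, A5-CKO 1 and A5-CKO 2. Its paralog Hnrnpll, known from the splicing of CD45, was at 43.4, 63.3, 70.9 and 65.0 CPM in that order, with A5-CKO above Ctrl by 65.0 against 63.3 CPM. The other members are Hnrnpc, which binds uridine tracts, Hnrnpm, which binds GU-rich RNA, Hnrnpr, a relative of SYNCRIP, and Hnrnpul1 and Hnrnpul2, relatives of HNRNPU that act in the response to DNA damage. They had log2 fold changes from -0.34 to 0.43, and the genotypes overlapped in each. Hnrnpr, at 56.0, 65.9, 98.7 and 65.4 CPM in the order Ctrl 1, Ctrl 2, A5-CKO 1 and A5-CKO 2, had a log2 fold change of 0.43 that became -0.61 with the GC and length correction.

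Both hnRNP genes that failed the filter were near 0. Hnrnpu, known for scaffolding chromatin and the inactive X chromosome, had 0, 2, 3 and 0 counts in the order Ctrl 1, Ctrl 2, A5-CKO 1 and A5-CKO 2, none above the floor of 3 counts. Its neighbour Cox20, which overlaps it, had 0 counts in every library, and the next gene on the other side with counts, Efcab2, had 79, 91, 194 and 69. Other hnRNP genes, such as Hnrnpa1 with 3523 to 7332 counts, were well covered in the same libraries, yet no level can be given for Hnrnpu, and whether mapping or annotation kept its reads from being counted was not tested. Hnrnpa1l2-ps2 is typed protein-coding although its symbol marks a pseudogene, and it had 0, 3, 1 and 1 counts.

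Levels of different genes were compared per kilobase of the longest principal transcript of GENCODE M21. On this scale the highest means over the 4 libraries were 284 CPM per kb for Hnrnpa2b1, 206 for Srsf5, 170 for Hnrnpk, 140 for Hnrnpab, 129 for Hnrnpa1 and 118 for Srsf2. Per kilobase of all annotated exons, Hnrnpab led at 119 CPM per kb, followed by Srsf5 at 81.0, Hnrnpa1 at 78.5, Srsf2 at 75.7, Hnrnpa2b1 at 71.6 and Hnrnpk at 70.3. The order of the most abundant members therefore depended on the length used, and levels were set side by side with no test.

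Ratios between paired family members, not all of them close relatives, were taken within each library, where scaling cancels. Of 13 pairs with both genes tested, 2 had higher ratios in both A5-CKO libraries, 3 had lower ones and 8 overlapped between genotypes. Among single genes tested, 20.3% were higher and 23.5% lower without overlap. No such share was taken for other pairs, so the count cannot be read as a trait of these pairs. The log2 ratio of Hnrnpa3 to Hnrnpa0 was -1.19 and -1.66 in the Ctrl libraries and -0.13 and -1.11 in the A5-CKO libraries, so Hnrnpa3 took a larger part of the pair in both, A5-CKO 1 far more. The log2 ratio of Srsf10 to Srsf12 was 8.73 and 7.85 in the Ctrl libraries and 6.85 and 6.34 in the A5-CKO libraries, which rests on the few Srsf12 counts. The log2 ratio of Hnrnpl to Hnrnpll was 2.35 and 2.14 in the Ctrl libraries against 1.99 and 1.90, a difference of -0.30. Hnrnpa1 to Hnrnpa2b1 gave -0.79 and -0.73 against -1.16 and -0.88, so Hnrnpa1 took a smaller part in both A5-CKO libraries. The ratio of Srsf1 to Srsf9 did not overlap either, at -5.01 and -5.35 against -3.86 and -4.52, but Srsf1 is uncertain as above.

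**Figure D3:**
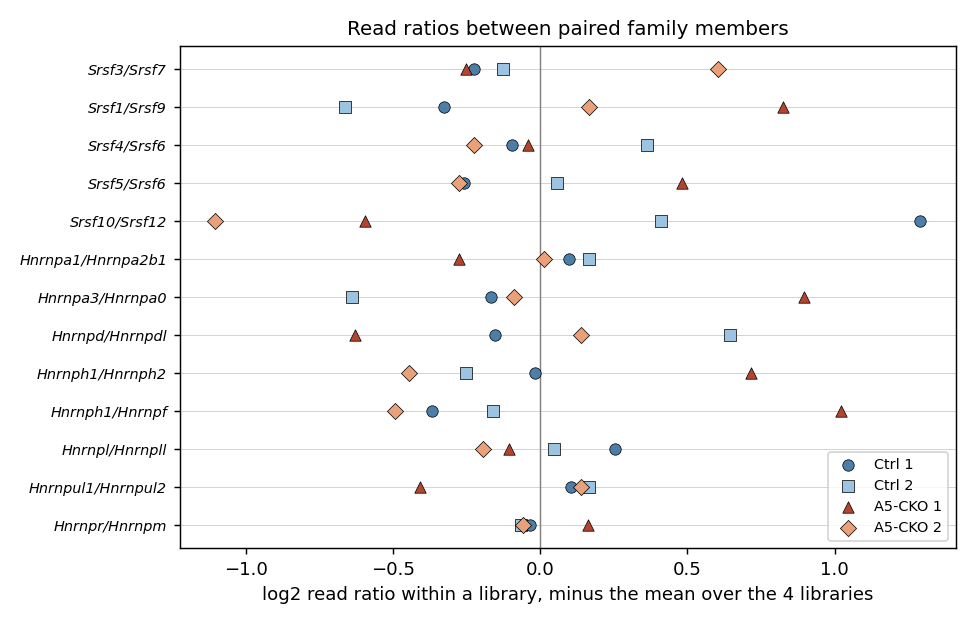
Log2 ratio of reads between members of each pair within a library, plotted as the difference from that pair's mean over the 4 libraries, with 1 point per library. For Srsf10 to Srsf12 both Ctrl points (log2 ratios 8.73 and 7.85) lie to the right of both A5-CKO points (6.85 and 6.34), and 8 of the 13 pairs overlap between genotypes.

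The members were set beside all genes by sequence features that the rule had not used. They varied widely, from 37.1% GC (Hnrnph1) to 55.4% GC (Hnrnpa0). Their median transcript GC content was 43.9%, against 49.8% over all genes, and their median transcript length was 3300 nt, against 3165 nt. Across the 30 members, Spearman's rho of the log2 fold change was -0.54 with GC content and 0.36 with length, and across 15237 genes it was -0.37 and 0.29. These are descriptions across genes that share the same 4 libraries. The motif GGACT, a common context of N6-methyladenosine, occurred 0.566 times per kb in the median member transcript and 1.06 times per kb over all genes. GENCODE M21 annotates a transcript subject to nonsense-mediated decay for 60% of the tested members (18 of 30), for 9 of 11 SR genes and 9 of 19 hnRNP genes, and for 27.4% of 13692 tested genes. A retained-intron transcript is annotated for 70% of the members (21 of 30) and for 56.7% of those genes. The counts pool all transcripts of a gene, so these isoforms could not be told apart here. The members were also more abundant, with a median of 135 CPM against 17.7 CPM over all genes tested. Whether abundance bears on these annotation shares was not tested.

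Promoter windows of 250 bases before the most 5′ start in the RefSeq table were available for 28 members. Of these, 20 start inside the range of the gene, and 10 lie wholly inside it, so those 10 hold no sequence before the gene. TGACG was found on either strand in 53.6% of the member windows (15 of 28) and in 24.9% of 12798 windows of tested genes. GGGCGG was found in 78.6% (22 of 28) against 53.7%, and CCAAT, the CCAAT box, in 53.6% (15 of 28) against 35.0%. CCGGAAG was found in 21.4% (6 of 28) against 12.1%, and TATAAA, the TATA box, in 10.71% (3 of 28) against 7.165%. The remaining motifs scanned were not more frequent in the member windows. GCGCATGC, the NRF1 letters, was found in 3.571% (1 of 28) against 3.735%. AAGATGGCG, the YY1 letters, was found in 0 of 28 against 0.969%. These letters overlap in no fixed way with each other, and a match is a description of the sequence only.

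The rest of the splicing machinery was read from lists of genes that act with the members. Over all genes tested, 4.48% were higher and 4.71% lower at an unadjusted p under 0.05 in edgeR, and 27.8% were highest in A5-CKO 1. The counts of these short lists were set beside those shares with no test. Of kinases and import factors that phosphorylate and carry SR proteins, 9 of 10 were tested, with a median log2 fold change of 0.50, 1 higher at an unadjusted p under 0.05 and none lower. Prpf4b, a kinase of SR and spliceosomal proteins, was at 46.5 and 32.5 CPM in the Ctrl libraries and at 126 and 59.4 CPM in the A5-CKO libraries, with no overlap. Its log2 fold change was 1.23 (SE 0.43, unadjusted p = 0.0241 from edgeR, fitted across all genes). A5-CKO 1 was the highest library for 7 of the 9. Of 16 SR-related regulators tested, 3 were higher at that threshold and none lower, with a median of 0.41 and A5-CKO 1 highest in 12. Luc7l2, a U1 snRNP-associated protein, was at 89.2 and 97.7 CPM in the Ctrl libraries and at 421 and 142 CPM in the A5-CKO libraries. The other ones were Pnn, at 35.4, 27.3, 131 and 44.5 CPM in the order Ctrl 1, Ctrl 2, A5-CKO 1 and A5-CKO 2, and Rbm39, at 194, 129, 471 and 226 CPM. In all 3, A5-CKO 1 was the highest and the genotypes did not overlap. Without A5-CKO 1, the medians of the kinase and SR-related lists were 0.23 and 0.11, and no gene of either list passed an unadjusted p of 0.05.

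Of 18 hnRNP-like RNA-binding proteins tested, 1 was higher at an unadjusted p under 0.05, Ptbp2, the neural relative of the polypyrimidine tract-binding protein, at 14.2 and 7.33 CPM in the Ctrl libraries and 41.7 and 22.7 CPM in the A5-CKO libraries. The list's median was 0.30, with 12 above 0 and 6 below, but it was 0.09 without A5-CKO 1 and -0.08, with 7 above and 11 below, under the GC and length correction. Of 25 core spliceosome genes tested, 21 had a log2 fold change below 0 and 4 above, with a median of -0.29. In that list 1 was higher and 1 lower at an unadjusted p under 0.05. Over all genes tested, 4.48% were higher and 4.71% lower, so the calls in both lists lay near this background. The split about 0 depended on the scaling. Total counts only gave 13 above and 12 below with a median of 0.05, but moved the median of all genes to 0.30. The list lay below the median of all genes under both scalings (-0.02 for all genes in the main fit). Sf3b1, the branch-point factor of U2, was at 173, 152, 334 and 251 CPM in the order Ctrl 1, Ctrl 2, A5-CKO 1 and A5-CKO 2, and Snrpg, an Sm ring protein, was at 63.9, 39.3, 31.0 and 26.1 CPM. The genotypes did not overlap for either gene. Among the nuclear long non-coding RNAs, 4 of 6 were tested and A5-CKO 1 was the highest library for all 4, against 27.8% of all genes. Malat1, the RNA of nuclear speckles, where SR proteins collect, was at 722, 621, 3607 and 1304 CPM in that order, and Neat1, the RNA of paraspeckles, at 459, 491, 2413 and 750 CPM. The median of this list was 1.80, and 0.33 without A5-CKO 1. No gene of these lists had an adjusted p under 0.05 in the quasi-likelihood test of edgeR, Benjamini-Hochberg adjusted.

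**Figure D4:**
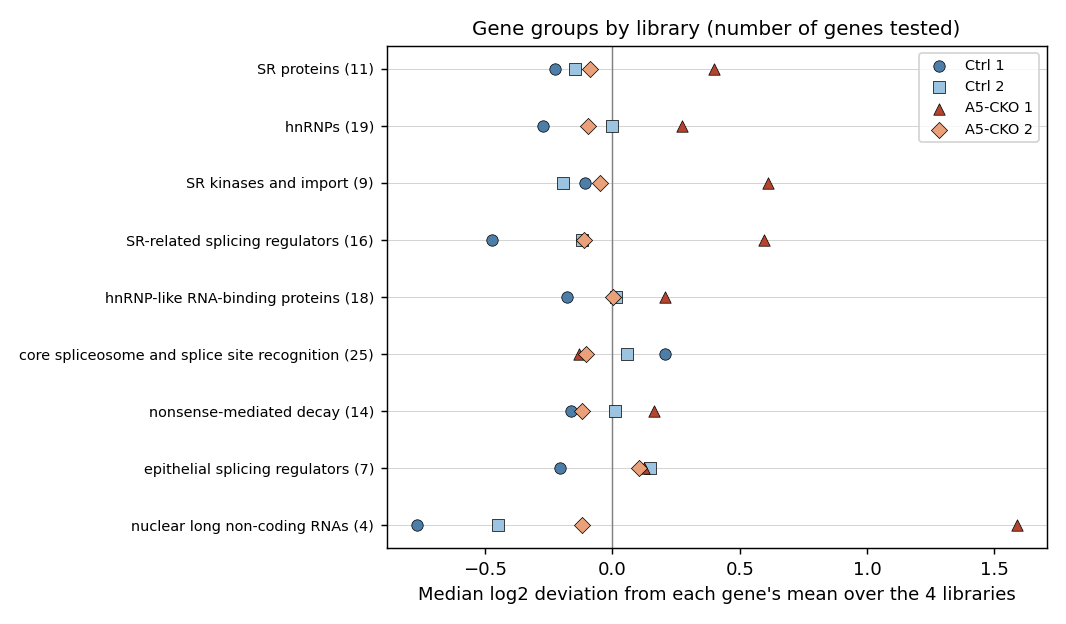
Median log2 deviation of each gene group's CPM from each gene's mean over the 4 libraries (pseudocount 0.1), with 1 point per library and the number of genes in brackets. In A5-CKO 1 the SR genes sit at 0.40, the hnRNP genes at 0.27 and the nuclear long non-coding RNAs at 1.59. The core spliceosome genes sit at -0.13 with the TMM factors. Their median log2 fold change turned sign with total counts only, which moved the median of all genes to 0.30.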

How the data were processed

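RNA from sorted AT2 cells of 2 Ctrl and 2 A5-CKO libraries was sequenced. The authors deposited read counts per gene, whole and not normalized, on mm10. Per the labels, Trim Galore 0.6.10, HISAT2 2.2.1 and featureCounts 2.0.3 were used. The study's methods describe the counting under MeRIP-seq and name no strand setting, so overlapping and antisense genes are uncertain, and 12 members overlap another gene (10 of those tested). Tested members that do so, beside Srsf2, Srsf9, Hnrnpdl, Hnrnph3 and Hnrnpab, are Srsf4, Hnrnpd, Hnrnpf, Hnrnpk and Hnrnpll. Of the rows, 223 lie on fix patches.

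Counts were analysed with edgeR 4.0.16 in R 4.3.3 (TMM factors 0.933, 0.86, 1.11 and 1.13, filterByExpr, glmQLFTest, Benjamini-Hochberg over 16661 genes). The biological coefficient of variation was 41.6%. CPM used TMM-scaled library sizes. Members and lists were chosen with earlier results of these data known. Alternatives were DESeq2 1.42.0, limma 3.58.1 voom, RLE, upper-quartile and no scaling factors, no filter, at least 10 counts in every library, a robust fit, a replicate block, each library left out, and a GC and length correction by splines with 4 degrees of freedom for 15237 genes (91.5%). Members with values in each library had an unadjusted p under 0.05, did not overlap with a log2 fold change of at least 0.5, were among the 3 most abundant of their family per kb, or belonged to a paralog pair that did not overlap. Any other gene was named with its values known. The fit was tested on simulated counts. Same-numbered libraries did not pair (correlation -0.342).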

Additional observations from a re-analysis of the deposited data

How the results depend on the processing

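No member passed an adjusted p of 0.05 under any alternative, and the smallest adjusted p, for Srsf11, was 0.0546 in the crossed block described below. At an unadjusted p under 0.05, 2 members were higher, against 5 with total counts only, 1 with limma voom and 1 with the GC and length correction. At the same threshold 0 were lower, against 1 (Hnrnpr) with that correction. Over all 16661 genes, 1530 passed it in either direction in the main fit, 1877 with total counts only and 1445 with limma voom. With the correction 1120 of 15237 genes did. The SR median of 0.32 became 0.65 with total counts only, -0.033 with the correction and -0.017 to 0.47 with a library left out. The hnRNP median of 0.31 became 0.63, -0.065 and -0.0076 to 0.40. Members with A5-CKO above Ctrl numbered 7, where 20.3% of all genes did so. They numbered 19 with total counts only, 11 with RLE factors, 12 with upper-quartile factors and 8 to 21 with a library left out. Members with A5-CKO below Ctrl numbered 2, where 23.5% of all genes did so. They numbered 1 with total counts only, 1 with upper-quartile factors and 3 to 7 with a library left out. In the main scaling, A5-CKO 1 alone lay above both Ctrl libraries for 35.0% of all genes, and A5-CKO 2 for 33.3%. For the other settings no share over all genes was taken, so these counts cannot be read as a trait of the members. Alkbh5 had a log2 fold change of -2.01 (adjusted p 0.0248) when DESeq2 was run on those genes and -2.02 (0.0254) under its default filtering. With the TMM-scaled library size as denominator, an alternative chosen after seeing the data, the difference in the hnRNP share, A5-CKO minus Ctrl, was 0.0465 percentage points against 0.126 with all counts.

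The numbers in the labels did not pair the libraries (correlation -0.342). With the replicate block, 1 member passed an unadjusted p under 0.05, none passed after adjustment, and 754 of all genes passed the unadjusted threshold. The crossed pairing, chosen after seeing the data, gave 2 members at an unadjusted p under 0.05 and 0 after adjustment. Over all 16661 genes tested it gave 2582 and 230 in that order, with Alkbh5 at -2.06.

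Log2 fold changes that turned sign with total counts only were Hnrnpa0 0.034, Hnrnpab 0.15, Hnrnpc 0.13, Hnrnpk 0.29, Hnrnpul2 0.27 and Srsf4 0.26, and with upper-quartile factors Hnrnpk 0.064, Hnrnpul2 0.047 and Srsf4 0.031. Hnrnpk was also 0.014 with RLE factors, 0.014 in DESeq2 on the same genes and 0.012 with at least 10 counts in every library. With the GC and length correction they were Hnrnpd -0.20, Hnrnph2 -0.13, Hnrnpll -0.17, Hnrnpr -0.61, Srsf1 -0.033, Srsf10 -0.12, Srsf3 -0.073, Srsf4 0.074, Srsf5 -0.013, Srsf6 -0.12 and Srsf7 -0.20.

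With a library left out, the ranges that crossed 0 were -0.089 to 0.54 for Hnrnpa1, -0.0076 to 1.03 for Hnrnpa3, -0.092 to 0.22 for Hnrnpf, -0.13 to 1.25 for Hnrnph1, -0.66 to 1.06 for Hnrnph3, -0.055 to 0.20 for Hnrnpl, -0.63 to 0.10 for Hnrnpul1, -0.34 to 0.33 for Hnrnpul2, -0.21 to 0.80 for Srsf10, -0.41 to 0.27 for Srsf4, -0.21 to 0.94 for Srsf5, -0.017 to 0.38 for Srsf6 and -0.52 to 0.47 for Srsf7. Differences in log2 ratio ranged from -0.23 to 1.29 for Hnrnph1 to Hnrnpf, -0.31 to 0.85 for Hnrnph1 to Hnrnph2, -0.0081 to 0.21 for Hnrnpr to Hnrnpm, -0.54 to 0.0017 for Hnrnpul1 to Hnrnpul2, -0.077 to 0.78 for Srsf3 to Srsf7 and -0.17 to 0.58 for Srsf5 to Srsf6, and the difference in hnRNP reads per SR read from -0.489 to 0.0089. Beyond the constructions named (a scaling, a correction, fewer libraries), the cause of these moves was not tested. With 2 libraries per genotype and this spread, differences of the size of most members could not be told from 0, and a missed threshold does not show that values were equal.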

Other observations

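Other genes that act on the products of splicing were tested beside the members. Over all genes tested, 4.48% were higher and 4.71% lower at an unadjusted p under 0.05 in edgeR. Of 14 nonsense-mediated decay genes tested out of 15, 2 were higher in A5-CKO at an unadjusted p under 0.05 and none was lower, and the median log2 fold change was -0.09. Neither the calls nor the sign of the median held throughout. Total counts only moved the median of all genes to 0.30, so its values are read against that. Without A5-CKO 1 no gene of the list passed that threshold, and across the alternatives the median ran from -0.14 without A5-CKO 1 to 0.23 with total counts only, where 13 of 14 were above 0. Smg1, the kinase that phosphorylates UPF1, was at 45.3 and 59.3 CPM in Ctrl 1 and Ctrl 2 and at 146 and 109 CPM in A5-CKO 1 and A5-CKO 2, a log2 fold change of 1.29 (SE 0.32, adjusted p = 0.528 by the quasi-likelihood test of edgeR, Benjamini-Hochberg adjusted). Upf2, an adaptor of UPF1, was at 16.9 and 12.9 CPM in the Ctrl libraries and at 53.7 and 26.2 CPM in the A5-CKO libraries. In both genes each A5-CKO library was higher than each Ctrl library. Of 7 further splicing regulators, 4 had a log2 fold change above 0 and 3 below (Esrp1 -0.10, Esrp2 -0.25 and Rbm47 -0.17), with a median of 0.26. At that threshold 1 was higher, Qk, which encodes the RNA-binding protein quaking, and none passed it with the GC and length correction. Qk was at 127 and 112 CPM in the Ctrl libraries and 170 and 244 CPM in the A5-CKO libraries. Unlike most members, Qk was highest in A5-CKO 2.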
